A study of Caenorhabditis elegans with 4 samples.

Results

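ASH-2 peaks on the arms of Caenorhabditis elegans chromosome III were taken from the peak list deposited for the whole series, here called the series list. A peak belonged to an arm when its midpoint lay below position 3445925 or above position 10337775, which takes the outer 25% at each end of the chromosome in the WormBase WS220 build. By this rule 511 of the 3009 peaks of the series list were on the arms of chromosome III, 184 on the left and 327 on the right. The study sequenced 2 ASH-2 ChIP samples and 2 input samples of chromatin from fem-2(b245) hermaphrodites, labelled as young adults containing a germline, with a temperature of 20 degrees Celsius in the design. All 4 samples share the fem-2(b245) genotype, and no wild-type worms are among them. The antibody was an affinity-purified rabbit polyclonal raised against ASH-2. The labels give hermaphrodite young adults, whereas the growth protocol names gravid adults floated on sucrose. The peak lists hold no expression values, so the stage and the germline were not checked against marker genes.

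ASH-2 is a core subunit of the COMPASS family of complexes, which methylate histone H3 at lysine 4, a mark found at the promoters of active genes. In C. elegans, ASH-2 acts with the methyltransferase SET-2 and with WDR-5, and loss of these proteins is known to lengthen life in worms that have a germline. fem-2 encodes a protein phosphatase of the sex determination pathway, needed for male development and for sperm, and b245 is known as a temperature-sensitive allele. C. elegans chromosomes have no single centromere. The arms of the autosomes recombine more and hold more repeats and more histone H3 lysine 9 methylation than the centres, which carry more of the essential and widely expressed genes.

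The replicates differed greatly in the peaks deposited for them. On the chromosome III arms, ChIP replicate 1 had 62 peaks of a median width of 1873 bp and replicate 2 had 206 of a median width of 290 bp. The covered length was more alike, at 162 kb in replicate 1 and 153 kb in replicate 2. The series list covered 229 kb with its 511 peaks. The labels do not state that the replicates are separate cultures, and differences between them may be technical. The lists hold no read counts, and the sequencing depth is unknown. The p-values below treat peaks as independent, although neighbouring peaks are not, so they are too small. They describe these lists and not the spread between worms.

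The right arm held far more series peaks than the left, and in both replicate lists the ratio was closer to 1. The series list had 184 peaks on the left arm and 327 on the right, or 53.4 and 94.9 peaks per Mb over arms of 3.45 Mb, a ratio of left to right of 0.563 (exact binomial test, two-sided, adjusted p = 2.06e-09). Replicate 1 had 25 and 37 peaks, a ratio of 0.676, and replicate 2 had 97 and 109, a ratio of 0.89. The ratio was thus below 1 in each list, with a mean of 0.783 ± 0.152 (SD, n = 2) over the replicates. In neither replicate list alone did the count pass the threshold (exact binomial test, adjusted p = 0.313 for replicate 1 and 0.56 for replicate 2). In bases covered by the series list the left arm had 93.3 kb and the right arm 135 kb, a ratio of 0.689. Unequal arms were not particular to chromosome III. The series list had 295 peaks on the left and 91 on the right arm of chromosome I, and 76 and 378 on II. It had 146 and 308 on IV, and 232 and 274 on V. The contrasts on these other chromosomes were not tested.

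Among the autosome arms, the right arm of chromosome III was the second densest of 10 in the series list, after the right arm of chromosome II with 99.5 peaks per Mb, and the left arm was the fifth. The arms of chromosome III together had 74.2 peaks per Mb, against 48.9 to 59.8 on the other 4 autosomes. The centre of chromosome III had 9.87. These densities were not tested. The arms of chromosome III were chosen with their high density already known, so their rank is not an independent result.

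The excess on the right was spread along the arm. In bins of 250 kb counted from each chromosome end, the right arm had more series peaks than the left at 11 of 14 distances. The fullest bin of the right arm, 0.5 to 0.75 Mb from the end, held 39 peaks, and the median bin held 24. On the left arm the fullest bin, 2.5 to 2.75 Mb from the end, held 30 and the median bin 12. A larger part of the left-arm peaks lay beyond 2 Mb from the end, 96 of 184 against 122 of 327 on the right. On the left, the bins at 2 to 2.25 Mb and 2.5 to 2.75 Mb held 22 and 30 of these. The other left bins beyond 2 Mb held 9 to 12 each. The outermost 1 Mb, a shorter stretch than that beyond 2 Mb, held 43 peaks on the left and 82 on the right. Replicate 2 had a larger part of its peaks in the outermost 1 Mb than the series list, with 42 of 97 on the left and 38 of 109 on the right. Its fullest left bin, with 21 peaks, lay 0.25 to 0.5 Mb from the end, and its fullest right bin, with 20, was the outermost one. Of those 20 peaks, 12 belonged to a single cluster from 13584111 to 13599073. With peaks under 1 kb apart merged, replicate 2 had 63 sites on the left arm and 73 on the right. Replicate 1 had no peak in the outermost bin of either arm, where the series list had 6 on the left and 13 on the right.

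**Figure D1:**
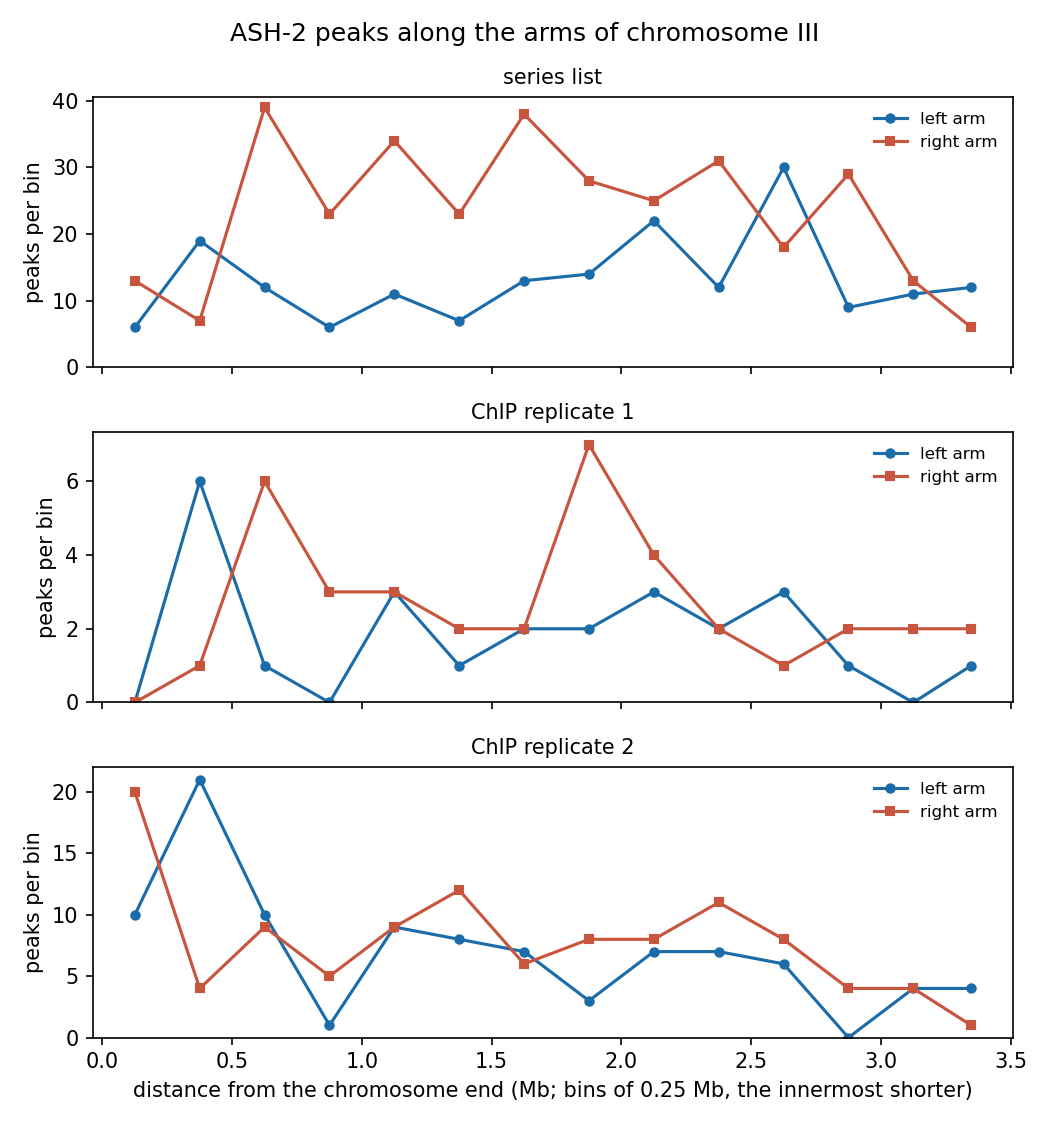
Number of ASH-2 peaks per bin (y axis) against distance from the chromosome end in Mb (x axis) for the left and the right arm of chromosome III, in the series list and in each ChIP replicate. In the series list the right arm is above the left at 11 of 14 distances, and in replicate 2 it is above at 8, below at 4 and equal at 2.

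The borders of the rule fell in sparse stretches. The last peak inside the left border, from 3425615 to 3425844 with a score of 7.91, was followed by one outside it from 3641239 to 3641394 with a score of 2.92. On the right, the last peak outside the border ran from 10274194 to 10274462 with a score of 5.75, and the first inside it ran from 10358863 to 10359038 with a score of 4.29.

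Most series peaks on these arms were in neither replicate list. The series list names MACS v2 as its source and the replicate lists name MACS, and no calling threshold is given for any list. The shares below therefore compare lists that may have been called differently, and the effect of this was not tested. Of the 511 peaks, 110 were overlapped by replicate 1 by 1 bp or more (21.5%, 95% Wilson interval 18.2 to 25.3%), against 21.6% of the whole series list. Replicate 2 overlapped 121 (23.7%, 20.2 to 27.6%), against 36.6% of the whole list. Both replicates overlapped 41 (8.02%, 5.97 to 10.7%), against 10.6% of the whole list, and neither overlapped 321 (62.8%, 58.6 to 66.9%), against 52.4%. Replicate 1 alone accounted for 69 more and replicate 2 alone for 80. By length the picture was different. The 41 peaks found in both replicates held 37.3% of the bases covered on the arms, and the 321 found in neither held 32.5%.

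The arms of chromosome III were not told apart from the arms of the other autosomes by these shares. Replicate 1 overlapped 21.5% of peaks on the chromosome III arms and 21.3% of the 1800 peaks on the other arms, a difference of 0.193 percentage points (95% Newcombe interval -3.68 to 4.38; Fisher's exact test, adjusted p = 0.951). For replicate 2 the difference was -3.27 points (-7.33 to 1.09; Fisher's exact test, adjusted p = 0.308), and for peaks in neither replicate it was 2.37 points (-2.45 to 7.05; adjusted p = 0.471). Wide peaks, high scores and close spacing, described further on, did not separate these arms from the others either, with differences of -1.36 points (-4.57 to 2.26) for widths of 500 bp or more, -0.73 points (-4.54 to 3.41) for the top 25% of scores and -2.28 points (-6.86 to 2.47) for gaps under 1 kb (Fisher's exact test, adjusted p = 0.576, 0.792 and 0.471). With arms taken as the outer 33.3% of each chromosome, the difference for replicate 2 was -6.83 points and passed the threshold (Fisher's exact test, adjusted p = 0.00695).

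The centre of the same chromosome did differ from its arms. Replicate 2 overlapped 43 of its 68 peaks (63.2%, 51.4 to 73.7%), against 23.7% on the arms (Fisher's exact test, two-sided, adjusted p = 2.06e-09). Replicate 1 went the other way, with 5 of 68 peaks in the centre (7.35%) against 21.5% on the arms (Fisher's exact test, adjusted p = 0.0183). In their own lists both replicates had more peaks on the arms than in the centre, and replicate 1 had the smaller part in the centre. Replicate 1 had 62 peaks on the arms and 4 in the centre, and replicate 2 had 206 and 77. A series peak overlapped 33 of those 77, against 130 of the 206 on the arms. Peaks in neither replicate made up 62.8% on the arms and 30.9% in the centre (Fisher's exact test, adjusted p = 3.45e-06). With peaks under 1 kb apart merged into sites, the difference for replicate 1 was 9.91 points and no longer passed (Fisher's exact test, adjusted p = 0.216). With only the upper 50% of scores kept, the centre had 25 peaks, and neither the difference for replicate 1, at 21.6 points, nor that for peaks in neither replicate, at 23.3 points, passed (Fisher's exact test, adjusted p = 0.101 and 0.115). With arms of 20% the difference for peaks in neither replicate was 6.63 points and did not pass either (Fisher's exact test, adjusted p = 0.347).

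The left arm shared a larger part of its peaks with replicate 2, and with both replicates, than the right arm did. Both replicates overlapped 24 of 184 peaks on the left (13.04%, 8.92 to 18.7%) and 17 of 327 on the right (5.2%, 3.27 to 8.17%; Fisher's exact test, two-sided, adjusted p = 0.0136). Replicate 2 overlapped 56 peaks on the left (30.4%) and 65 on the right (19.9%; Fisher's exact test, adjusted p = 0.0274). For replicate 1 the numbers were 44 (23.9%) and 66 (20.2%), a difference of 3.73 points (Newcombe interval -3.56 to 11.5; Fisher's exact test, adjusted p = 0.471). When peaks less than 1 kb apart were merged into sites, the left arm still had the higher shares, but neither difference passed the threshold. The difference was then 6.89 points for both replicates and 8.995 points for replicate 2 (Fisher's exact test, adjusted p = 0.173 and 0.174). With only the upper 50% of scores kept, the difference for replicate 2 was 7.99 points and did not pass either (Fisher's exact test, adjusted p = 0.501).

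**Figure D2:**
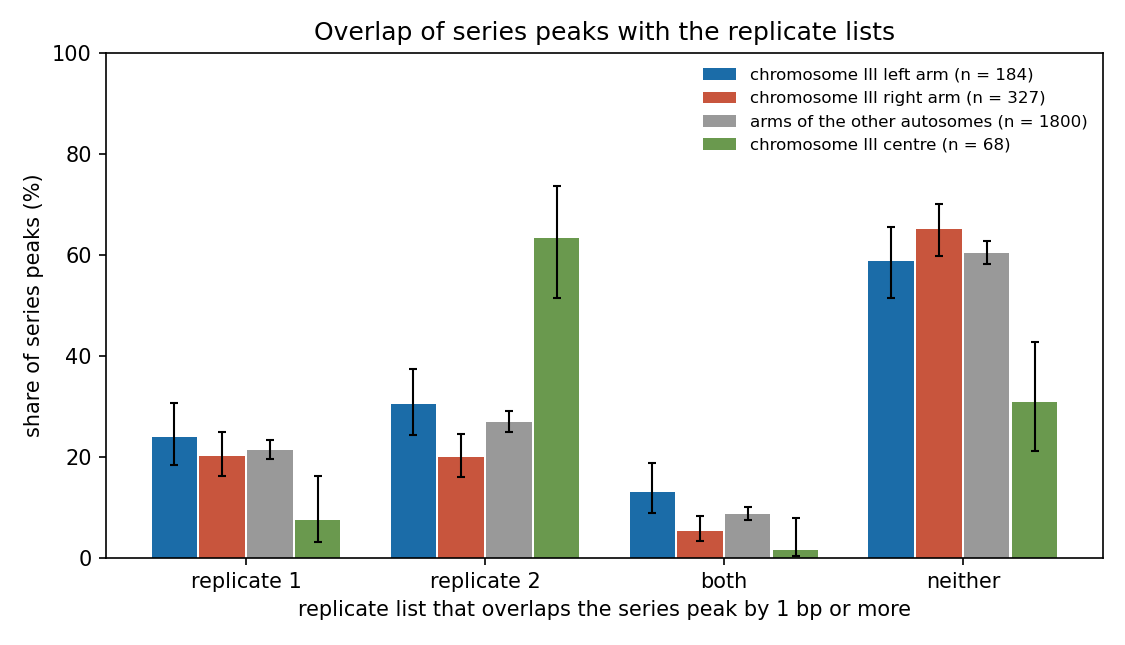
Share of series peaks in percent (y axis) overlapped by replicate 1, by replicate 2, by both or by neither (x axis), for the left and right arm and the centre of chromosome III and for the arms of the other autosomes; error bars are 95% Wilson intervals. The centre of chromosome III stands apart at 63.2% for replicate 2, and the left arm is above the right at 13.04% against 5.2% for both replicates.

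Read from the replicate side, the series list held every replicate 1 peak of these arms but not every replicate 2 peak. All 62 replicate 1 peaks were overlapped by a series peak, and 30 of them by 2 or more, up to 5 in 1 peak. The 110 series peaks counted with replicate 1 are therefore not as many separate places. Of the 206 replicate 2 peaks, 130 were overlapped by a series peak (63.1%, 56.3 to 69.4%). The 76 others were narrower and lower in score by their medians, at 252 bp and 77.2, against 365 bp and 141 for the 130. Some of the 76 scored above 141, up to 579.17 for a peak of 721 bp from 1252466 to 1253186 on the left arm. Among the replicate 2 peaks, 14 carried a score of exactly 3100. The series list held 14 of these 14 and replicate 1 held 11. Between the replicates, 34 of the 62 replicate 1 peaks were overlapped by replicate 2, of which 18 of 25 lay on the left and 16 of 37 on the right. In the other direction 50 of the 206 replicate 2 peaks were overlapped by replicate 1.

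Series peaks on these arms were mostly narrow. The median width was 242 bp, with a range of 146 to 8205 bp and the middle 50% between 181 and 359 bp. The medians of the arms were nearly the same, at 242 bp on the left and 241 bp on the right. A width of 500 bp or more was reached by 29 peaks on the left (15.8%) and 41 on the right (12.5%), together 13.7%, against 18.6% of the whole list. The left and right shares differed by 3.22 points (Newcombe interval -2.86 to 9.97; Fisher's exact test, adjusted p = 0.471). Replicate 1 peaks were wider on the left, with a median of 2164 bp against 1584 bp, and replicate 2 peaks were not, with 277 bp against 303 bp. These medians were not tested.

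The size of the score deposited by the authors was compared only among peaks of the same list, and here it served as a rank within the series list. Peaks on these arms sat near the middle of that ranking, with a median percentile of 46.9. A score in the top 25% of the list, 6.97 or more, was reached by 105 of the 511 peaks (20.5%), against 25% of the whole list as the cut defines it. The left arm had 43 such peaks (23.4%) and the right arm 62 (19.0%; Fisher's exact test, adjusted p = 0.437). Of the 100 highest peaks of the list, 8 were on these arms, 3 on the left and 5 on the right. That was a smaller part than the 511 of 3009 peaks that these arms held. The arms of the other autosomes were also below their part, with 42 of the 100 highest and 1800 of the 3009 peaks. Scores were coarse, with 139 distinct values among the 511 peaks and 34 peaks at 3.53, so that many ranks were tied.

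Overlap with the replicates rose with score. Ordered by score, the 127 peaks of the top 25% on these arms included 57 overlapped by replicate 1 (44.9%, 36.5 to 53.6%) and 71 overlapped by replicate 2 (55.9%, 47.2 to 64.2%). In the bottom 25% the numbers were 15 of 127 (11.8%) and 14 of 127 (11.02%). Both differences passed the threshold (Fisher's exact test, two-sided, adjusted p = 3.18e-08 for replicate 1 and 3.74e-13 for replicate 2). The study has only 2 ChIP samples, so the series list and the replicate lists come from the same samples. Score and overlap are therefore not independent, and these tests describe the lists only. The step lay at the top. The group just below the top 25% was at 22.05% for replicate 1 and 12.6% for replicate 2, and the group below that at 7.69% and 15.4%. Both replicates overlapped 37 peaks of the top group, 3 of the next, 0 of 130 in the third (Wilson upper bound 2.87%) and 1 in the bottom group. The median width was 451 bp in the top group and 197 bp in the bottom one, and a wide peak is easier to overlap.

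**Figure D3:**
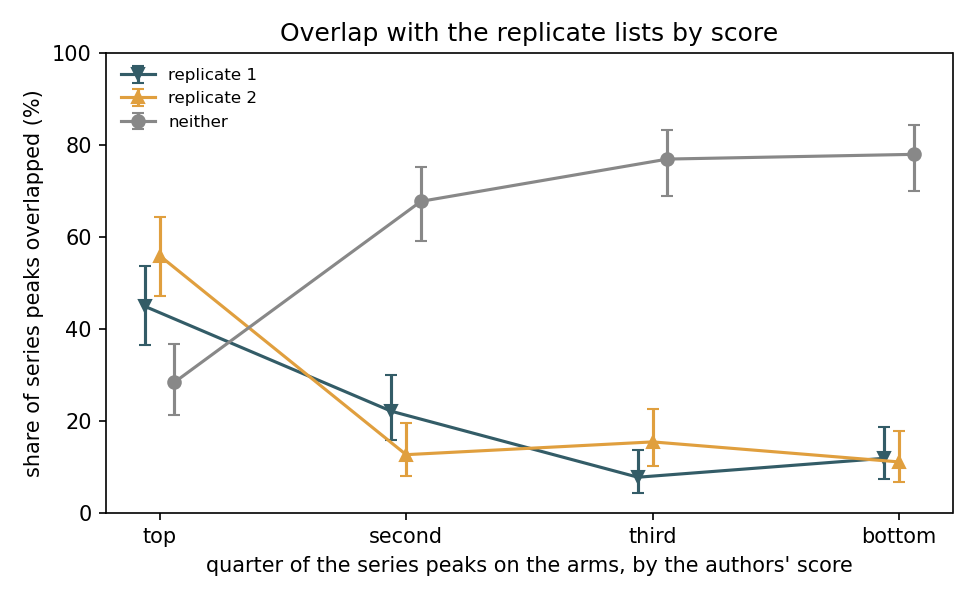
Share of series peaks on the chromosome III arms in percent (y axis) overlapped by replicate 1, by replicate 2 or by neither, by score group from the top 25% to the bottom 25% (x axis); error bars are 95% Wilson intervals. Overlap with replicate 2 drops from 55.9% in the top group to 12.6% in the next, and peaks in neither replicate go from 28.3% to 77.95%.

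The overlap classes were far apart in size. For peaks found in both replicates the median width was 1243 bp and the median score 14.7. For peaks in neither the medians were 209 bp and 4.04, and none of them exceeded 579 bp or a score of 11.1. Peaks of replicate 1 only and of replicate 2 only lay between, at 289 and 314 bp, with a median score of 5.41 in each. For the peaks in neither replicate, the median distance to the nearest peak of either replicate was 8827 bp, 172 of 321 lay within 10 kb, and 25 lay within 500 bp.

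**Figure D4:**
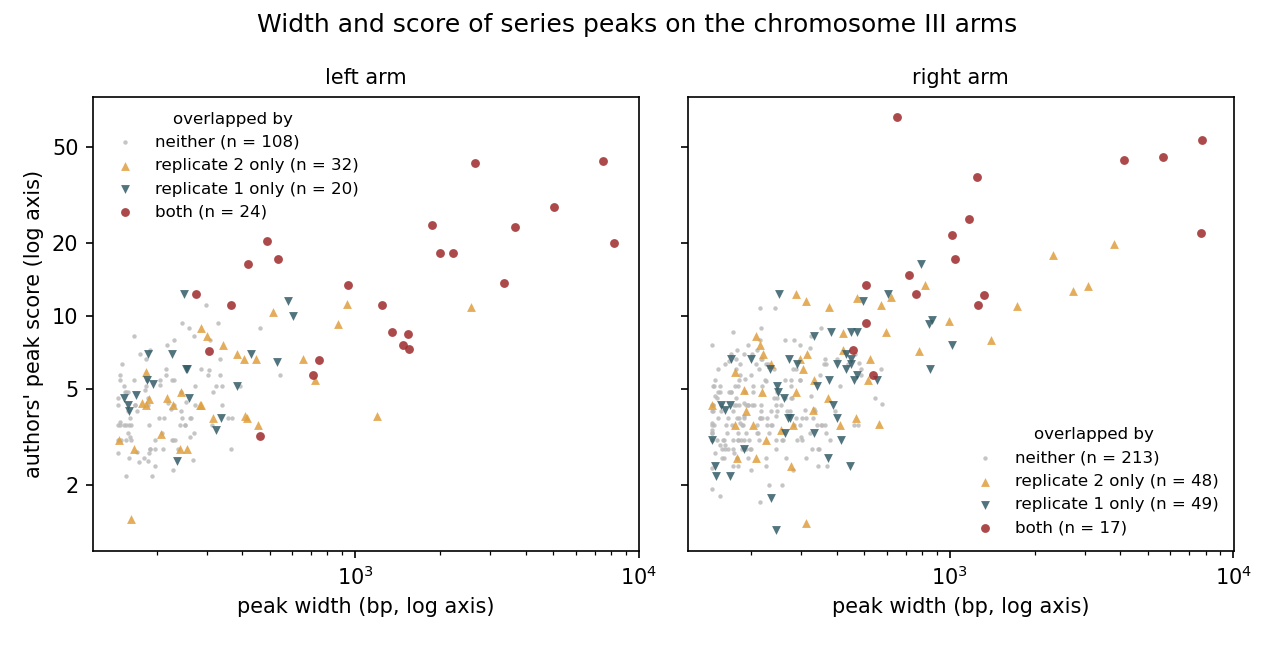
Peak width in bp (x axis, log) against the authors' peak score (y axis, log) for each series peak on the left and on the right arm of chromosome III, with symbols for the replicate lists that overlap it. Peaks in neither replicate fill the lower left corner, up to 579 bp and a score of 11.1, and the widest and highest peaks are those found in both.

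The strongest sites of these arms were found in both replicates. The highest score, 66.23, belonged to a narrow peak of 650 bp on the right arm, from 10505924 to 10506573, which was also the fourth highest of the whole list. Replicate 1 had a peak of 1437 bp there and replicate 2 one of 730 bp. The next and the fourth were neighbours, 7749 bp from 13074524 to 13082272 with a score of 53.39 and 4130 bp from 13082601 to 13086730 with a score of 43.88. Replicate 1 called both as a single peak of 12747 bp, from 13074186 to 13086932, its widest on these arms, and replicate 2 called them as separate peaks of 7740 and 4119 bp. The third was 5650 bp wide, from 11641910 to 11647559, with a score of 45.47. It was a single peak in each replicate too, of 6262 bp in replicate 1 and 5605 bp in replicate 2. Its score was 3100 in both, a value that 14 replicate 2 peaks of these arms carried.

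On the left arm the highest peak, 7474 bp from 1362657 to 1370130, scored 43.74 and was again 1 peak in each replicate, of 8077 and 7378 bp. It was followed by 2651 bp from 424586 to 427236 with a score of 42.84, where replicate 1 had 2424 bp and replicate 2 had 2986 bp. A peak of 5038 bp from 2077570 to 2082607 scored 28.23, and one of 1863 bp from 1645130 to 1646992 scored 23.70. The other sites among the 10 highest found in both replicates were on the right arm, 1250 bp from 12172053 to 12173302 with a score of 37.38 and 1171 bp from 10683047 to 10684217 with a score of 25.17. The last of these scored 195.71 in replicate 1, where the median over these arms was 132, and 1347.33 in replicate 2, where it was 103.

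Very broad peaks were few and evenly divided. Peaks of 5 kb or more numbered 6, with 3 on each arm, and both replicates overlapped 6 of 6. They covered 41.8 kb, or 18.3% of the bases in series peaks on these arms. The widest, 8205 bp from 321771 to 329975 on the left arm, scored only 19.92 and was met by 2 peaks of each replicate. On the right arm a peak of 7659 bp from 11429099 to 11436757, with a score of 22.08, was 1 peak of 8174 bp in replicate 1 and was split into 4 in replicate 2.

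The highest peaks with no replicate peak were narrow. The first was 298 bp on the left arm, from 1131505 to 1131802, with a score of 11.12, which placed it at rank 364 of the list. A score of 10.74 was shared by peaks of 215 bp from 11749003 to 11749217 and of 242 bp from 12040162 to 12040403 on the right arm. A score of 9.29 was shared by 245 bp from 2374112 to 2374356 and 328 bp from 2982120 to 2982447 on the left arm.

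Peaks were closely spaced on both arms. The median gap to the next peak was 3156 bp on the left and 2419 bp on the right, and the longest stretch without a peak was 173 kb on the left and 192 kb on the right. Gaps under 1 kb made up 59 of 183 on the left (32.2%) and 114 of 326 on the right (34.97%), together 33.99%, against 36.5% over the whole list. The arms differed by -2.73 points (Newcombe interval -11.01 to 5.92; Fisher's exact test, adjusted p = 0.639), so a difference in close spacing between them was not detectable. The upper quartile of the gaps was 14725 bp on the left and 11882 bp on the right, which was not tested. In replicate 1 only 3 of 60 gaps were under 1 kb, while replicate 2 had 70 of 204 (34.3%).

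**Figure D5:**
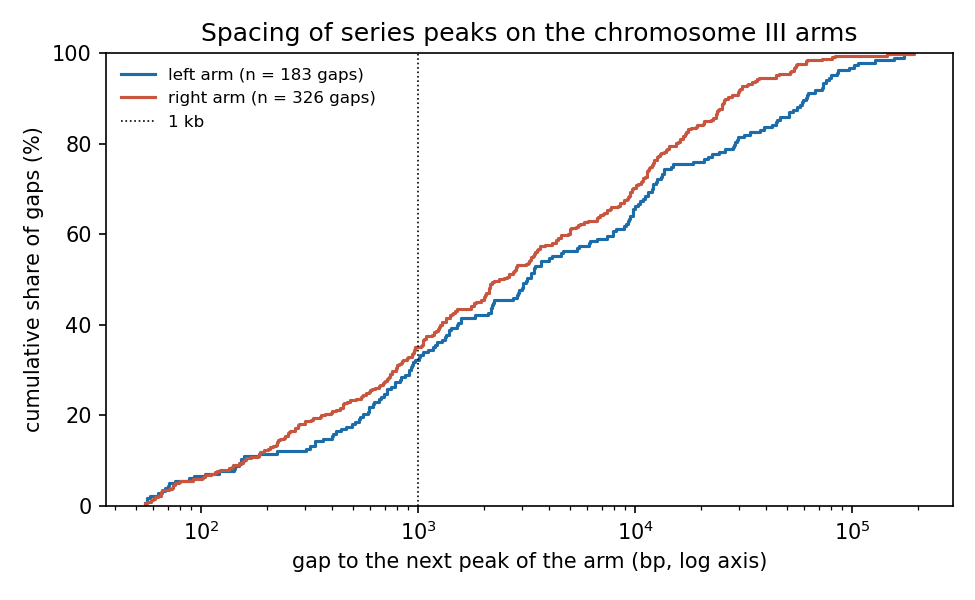
Cumulative share of gaps in percent (y axis) against the gap from each series peak to the next on the same arm in bp (x axis, log), for the left and the right arm of chromosome III; the dotted line marks 1 kb. The left arm lies below the right at 1 kb, at 32.2% against 34.97%. The difference is -5.28 points at 500 bp and -3.63 points at 2000 bp. Gaps under 10 kb are 121 of 183 on the left and 229 of 326 on the right.

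Joining peaks with gaps under 1 kb gave 338 sites, 125 on the left and 213 on the right. Single peaks made up 232 of them and pairs 63. The remaining 43 sites, 15 on the left and 28 on the right, were clusters of 3 or more peaks and held 153 of the 511 peaks. Their median span was 2160 bp. On the arms of the other autosomes, clusters of 3 or more peaks made up 142 of 1150 sites and held 587 of 1800 peaks, so such clusters are not particular to chromosome III. Of the 43 clusters on chromosome III, 13 held no peak that either replicate overlapped, 3 of 15 on the left and 10 of 28 on the right. No such count is given here for the other arms.

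The clusters with the most peaks were of different kinds. The fullest, 7 peaks over 4249 bp from 2604007 to 2608255 on the left arm, had scores from 4.56 to 7.58, and replicate 1 overlapped 3 of its peaks and replicate 2 1. The cluster from 12255117 to 12258839 on the right arm held 6 peaks over 3723 bp, of which replicate 1 overlapped 5 and replicate 2 1. The other cluster of 6, from 13584138 to 13599085 near the right end, was nearly continuous, with 14452 of its 14948 bp inside peaks. Replicate 2 overlapped 6 of its 6 peaks and replicate 1 none. Replicate 2 itself had 12 peaks there, from 13584111 to 13599073, its fullest cluster on these arms, with a score of up to 3100. Of the 5 clusters of 5 peaks, the first by position ran from 2022648 to 2025723 on the left arm and the next from 11397972 to 11400418 on the right. Replicate 1 overlapped 3 and 4 of their peaks, and replicate 2 none.

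At the chromosome ends, replicate 2 and the series list had peaks where replicate 1 had none. The series peak nearest the left end, 207 bp from 55948 to 56154 with a score of 3.25, was overlapped by a replicate 2 peak of 389 bp. The one nearest the right end, 313 bp from 13783193 to 13783505, scored 1.39, among the lowest of the list at rank 3003. The replicate 2 peak over it was 1459 bp wide and scored 694.10. That replicate 2 peak also overlapped another series peak, which scored 7.18 and lay less than 1 kb away.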

How the data were processed

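ASH-2 ChIP-seq peaks were analysed from 3 deposited lists, 1 for each ChIP replicate and 1 for the series. Per the file headers the lists use WormBase WS220, and their source column names MACS v2 (series) or MACS (replicates). BWA and ce10 are named in the submitters' processing notes. For the control, the calling threshold and any pooling of replicates, nothing is given in the sources used here. Each peak's score, deposited by the authors, has no stated type, and its size was compared only among peaks of the same list. Input samples were not analysed here.

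Peaks were assigned to arms by midpoint. The length of each other autosome was the last position with a peak in any list. Overlap meant 1 bp or more, a wide peak 500 bp or more, and peaks with gaps under 1 kb were joined into sites. Shares have 95% Wilson intervals and their differences Newcombe intervals, both for counting error only. Fisher's exact test was used for shares and an exact binomial test for the number of peaks, two-sided, at a threshold of 0.05. P-values were adjusted by Benjamini-Hochberg over 24 tests, of which 8 passed. Sites named are the 10 highest-scoring peaks found in both replicates, the 5 highest in neither, the 5 widest, the 5 fullest clusters (ties by position), and the peaks nearest the borders and ends. The members and tests were chosen with earlier results of these data known. The functions were tested on simulated lists. Alternatives covered the overlap rule, score cut, merging, borders and list used. Peaks were not assigned to genes and no sequence is shown, since no annotation or genome of the WS220 build was used here. Python 3.11.15, NumPy 2.4.6, SciPy 1.17.1 and Matplotlib 3.10.9 were used.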

Additional observations from a re-analysis of the deposited data

How the results depend on the processing

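Of 178 values under alternative settings, 147 kept their direction and their side of the threshold or stayed within their interval. For the number of sites, a fixed fold range around 338 took the place of the interval. The ratio of left to right peaks passed with peaks merged into sites, with the upper 50% of scores, with arms of 20 or 33.3% and without the fullest bin of each arm. It ranged from 0.676 to 0.89 in a single replicate's list, where it did not pass, and was 0.689 in bases covered. The left-right difference for replicate 2 did not pass with the upper 50% of scores, at 7.99 points, or with merged sites, at 8.995, and that for both replicates did not pass with merged sites, at 6.89. Arms against centre did not pass for replicate 1 with the upper 50% of scores, at 21.6 points, or with merged sites, at 9.91, nor for peaks in neither replicate with the upper 50%, at 23.3, or arms of 20%, at 6.63. It passed for both replicates with peaks counted within 500 bp, at 8.71 points, and with arms of 20%, at 6.95. Against other arms, replicate 2 passed with arms of 33.3%, at -6.83 points. Differences that never passed changed sign in 8 cases. Against other arms these were replicate 1, at -0.652 within 500 bp and -0.686 with the upper 50%, both replicates at 0.471 and neither at -0.193 with arms of 20%, widths of 1 kb or more at 0.291 and gaps under 1 kb at 2.46 with the upper 50%. Against the centre they were widths of 1 kb or more, at 4.99, and gaps under 1 kb with arms of 33.3%, at -1.196. The cause of these changes was not tested. With the upper 50% of scores, replicate 1 overlapped 33.6% of peaks on the arms, replicate 2 35.7%, both 16.6% and neither 47.3%. Within 500 bp they were 28.2% for replicate 2 and 57.9% for neither, and over merged sites 17.8% for replicate 1. The number of sites was 173 with the upper 50% of scores and 59 to 136 in a single replicate's list. No paired analysis was possible because inputs were not analysed here and a replicate is 1 list. Depth is unknown, so what it limits cannot be stated.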
